A study of Mus musculus with 15 samples.

Results

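The 36 genes described here make up the core machinery of autophagy and of LC3-associated phagocytosis (LAP), measured in the retinal pigment epithelium (RPE) of young mice. They were listed by symbol for their known roles, with earlier results of these data known, and were looked up by Ensembl identifier. All 36 were found among the 46078 genes of the deposited count table. By role they comprise 6 genes of the class III phosphatidylinositol 3-kinase complexes with Rubicon, 2 NADPH oxidase genes, 4 ULK initiation genes and 5 genes of lipid transfer and phosphoinositide reading. The others are 6 genes of the conjugation machinery, 4 ATG4 proteases, 5 ATG8 proteins, 3 cargo receptors and the transcription factor gene Tfeb.

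Autophagy encloses cytoplasm in a new membrane and delivers it to lysosomes, with lipid-anchored ATG8 proteins (the LC3 and GABARAP families) on that membrane and receptors such as SQSTM1 that tie cargo to them. LAP uses part of the same machinery on phagosomes: a Rubicon-containing lipid kinase complex and, in macrophages, NADPH oxidase lead to LC3 being attached to the phagosome. In the RPE, LAP is known as a route by which engulfed photoreceptor outer segments are degraded, and MERTK is the receptor tyrosine kinase through which the RPE takes those segments up.

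RNA was sequenced from isolated RPE of female mice at postnatal day 14, taken from 2 hours after light onset, in 15 libraries of 4 groups. Mertk KO and Mertk WT had 4 libraries each, Bai1 Tg pos had 3 and Bai1 Tg neg had 4. Both Bai1 groups were wild type for Mertk and differ in a transgene of Bai1 (gene symbol Adgrb1), an adhesion receptor for phosphatidylserine on dying cells. Every library carries the same strain label, a mix of c57Bl/6J and the line B6;129-Mertktm1Grl/J, whose name gives the targeted Mertk allele. Neither the transgene's promoter nor the number of animals per library is stated in these sources. Whether libraries represent different mice is also unstated, and the p-values then reflect library-to-library spread that may be technical. The title of the series names compensation among phosphatidylserine receptors, and the comparisons below ask whether the degradative machinery differs with Mertk or with the transgene.

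Libraries held 9591129 to 20024507 counted fragments, so that 3 counts, the floor used here for undetected genes, correspond to 0.15 to 0.313 CPM (counts scaled to library size). Mertk stood at 238, 262, 252 and 233 CPM in Mertk WT and at 196, 169.7, 190.5 and 155 CPM in Mertk KO, and its counts cover the whole gene and not the disrupted part alone. The edgeR log2 fold change of Mertk was -0.48 (SE 0.086, 95% interval -0.66 to -0.29, adjusted p = 0.0461). The adjusted p lay between 0.0546 and 0.228 when any 1 of the 8 libraries was left out, and a block for the replicate number also ended the call. The call held in 7 of the 16 alternative analyses described under processing, with an adjusted p of 0.000274 in DESeq2. The Mertk estimate stayed between -0.52 and -0.414 in all 16, and the 2 groups did not overlap. Adgrb1 stood at 168, 169.9 and 166 CPM in Bai1 Tg pos and at 0, 0.119, 0.142 and 144 CPM in Bai1 Tg neg. The library labelled Bai1 Tg neg 4 therefore carries the transcript against its label, and member counts and several estimates that include it are also given without it below. All 15 RPE markers were detected in every group, with summed levels of 64920 to 73750 CPM. Rod photoreceptor markers, 16 in all, summed to 1636 to 4739 CPM in the Mertk libraries and to 768.1 to 1516 CPM in the Bai1 libraries, with no overlap. The 15 microglia and macrophage markers summed to 6.485 to 17.86 CPM and the 7 neutrophil markers to at most 0.2081 CPM. In such bulk samples, fewer cells of a type and less RNA per cell cannot be told apart.

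No member passed the edgeR threshold (adjusted p of 0.05) in any comparison, and the intervals of most lay within a 1.5-fold change of no difference in both genotype comparisons. Of the 36 members 35 had enough counts to be tested, and Cybb did not. In Mertk KO against Mertk WT 0 of 35 were called, beside 0.223% of the 13447 genes tested. In Bai1 Tg pos against Bai1 Tg neg 0 of 35 were called, beside 0.0144% of 13855 genes. In Mertk WT against Bai1 Tg neg, which compares control groups of separate library sets and not a genotype, 0 of 35 were called, beside 0.431% of 13459 genes. For the difference between the Mertk and Bai1 effects 0 of 35 were called, beside 0.103% of 14520 genes. DESeq2 and limma-voom also called 0 members in each of the 4, beside shares of all genes that differed by comparison. DESeq2 called 0.429% for Mertk, 0.13% for Bai1, 1.45% between the control groups and 0.459% for the difference. Limma-voom called 0.216%, 0%, 0.424% and 0.11% in the same order. With so low a share of genes called anywhere, the count of 0 says little about these genes in particular.

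The sizes of the differences say more than the calls. In Mertk KO against Mertk WT the members' estimated log2 fold changes ran from -0.28 for Atg4c to 0.22 for Atg101, with a median of 0.019 beside -0.000967 for all genes tested. Their median absolute log2 fold change was 0.08, beside 0.116 for all genes. For 33 of the 35 the 95% interval lay within a 1.5-fold change in either direction, and for all 35 within a 2-fold change. In Bai1 Tg pos against Bai1 Tg neg the estimates ran from -0.20 for Map1lc3a to 0.27 for Atg4c, and 34 of 35 intervals lay within 1.5-fold. Every interval of both comparisons thus lay inside a 2-fold change, and the median distance from estimate to interval bound was 0.222 on the log2 scale for Mertk and 0.209 for Bai1.

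Directions were mixed. Of the 35, 22 had estimates above 0 in Mertk KO, beside 49.7% of all genes tested, and 16 in Bai1 Tg pos, beside 49.9%. Between the control groups 19 did, beside 49.4%, and for the difference of effects 22 did, beside 50.4%. An absolute log2 fold change above 0.5 was reached by 0 members for Mertk (7.41% of all genes), 0 for Bai1 (11.9%), 0 between the control groups (8.47%) and 1, Atg4c, for the difference of effects (20.2%).

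Member counts and several estimates that include the library labelled Bai1 Tg neg 4 were recomputed without it. Ranges by role, most wider-list counts and the copies are given with it only. Shares over all genes are not given without it, and smaller groups overlap less often for any gene. The counts without it, in this paragraph and below, therefore describe the members and are not read against a background. For Bai1, 0 of 35 members were called, 13 had estimates above 0, all 35 intervals lay within 1.5-fold and 3 members had no overlap between groups. Its estimates were -0.08 for Tfeb, -0.09 for Cyba, 0.16 for Ulk2, 0.15 for Rb1cc1, -0.01 for Sqstm1, 0.0078 for Map1lc3b and -0.09 for Optn. Between the control groups 0 of 35 were called, 18 had estimates above 0, 32 intervals lay within 1.5-fold and 2 members had no overlap. Estimates there were 0.04 for Rubcn, -0.18 for Cyba, -0.12 for Tfeb, -0.14 for Atg101, 0.09 for Atg4c, -0.04 for Map1lc3b, -0.09 for Sqstm1 and -0.26 for Mitf. For the difference of effects 22 had estimates above 0, with 0.30 for Atg101, -0.29 for Rb1cc1 and -0.23 for Ulk2.

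**Figure D1:**
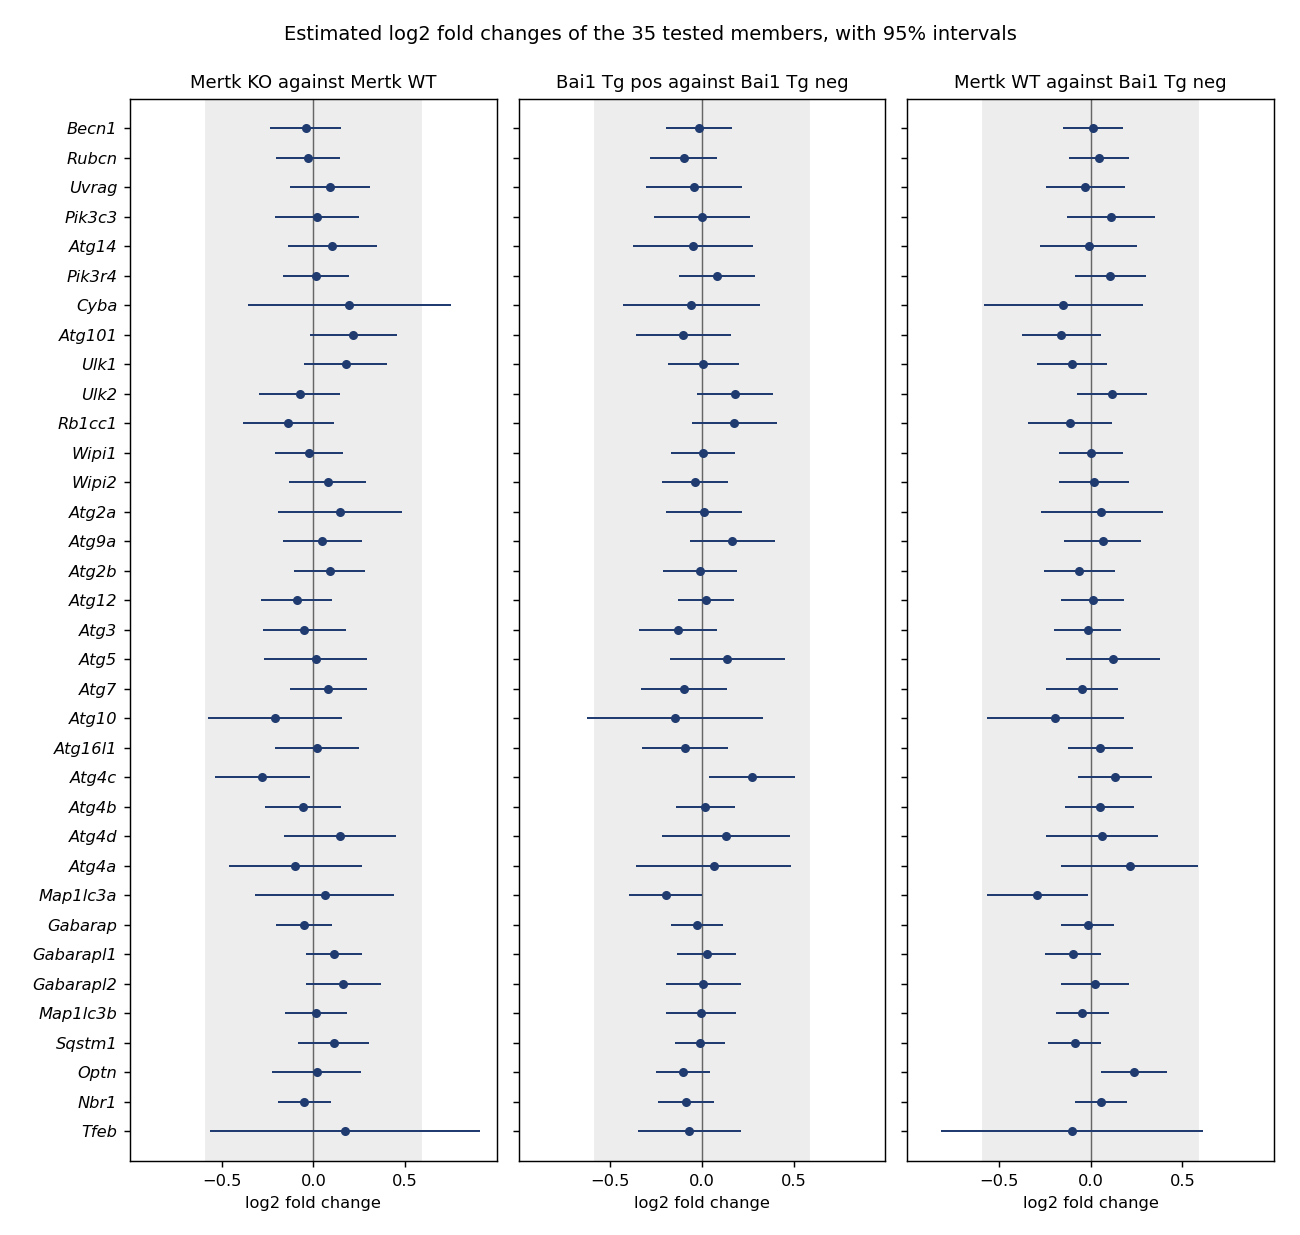
Estimated log2 fold change (x axis) of each tested member (y axis, ordered by role) in 3 comparisons; points are edgeR estimates, bars are 95% intervals and the grey band marks a 1.5-fold change in either direction. Tfeb and Cyba have the widest intervals for Mertk, and 33, 34 and 33 of the 35 intervals lie inside the band from left to right.

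The members also varied little among libraries of a group. The SD of log2 CPM within groups had a median of 0.127 over the 35 tested members, beside 0.218 over all 14520 genes. Abundant genes count more precisely, and the members were mostly abundant, so this comparison is a description. Gabarap (0.065), Nbr1 (0.072), Gabarapl1 (0.073) and Rubcn (0.084) had the smallest SDs of the members, and Tfeb (0.399), Cyba (0.349), Atg4a (0.282) and Map1lc3a (0.234) the largest.

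Tfeb (ENSMUSG00000023990; GRCm38, chromosome 17, 47737030 to 47792419, plus strand) encodes the MiT-family factor that switches on lysosomal and autophagy genes. It stood at 52.4, 16.6, 39.3 and 34.5 CPM in Mertk WT, at 36.2, 40.2, 48.6 and 36.8 CPM in Mertk KO, at 38.05, 35.03, 42.9 and 37.04 CPM in Bai1 Tg neg and at 37.9, 28.8 and 42.5 CPM in Bai1 Tg pos. The Mertk WT libraries held both the highest and the lowest of the 15 values, and all 4 groups overlapped. The low value came from Mertk WT 2, the library with the highest rod marker level. The log2 fold change was 0.17 (SE 0.32, 95% interval -0.56 to 0.91, adjusted p = 0.951) for Mertk KO and -0.07 (SE 0.13, 95% interval -0.35 to 0.21, adjusted p = 0.984) for Bai1 Tg pos. Without Mertk WT 2 the Mertk estimate was -0.07, and without Bai1 Tg pos 2 the Bai1 estimate was 0.08, so the sign of each rested on 1 library. Between the control groups it was -0.10 (95% interval -0.82 to 0.61), and 0.15 without Mertk WT 2.

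TFEB binds a palindromic promoter element, the CLEAR element, whose core is the E-box CACGTG. Promoter windows of RefSeq (GRCm38.p6, 250 bases before to 50 after a gene's start) matched 30 of the 36 members. The core, a palindrome that reads the same on both strands, was present for 5 of those 30 (16.7%: Atg14, Atg3, Atg5, Atg7 and Rubcn), beside 8.09% of 27025 genes with a window. The longer TCACGTG, which contains the core, was present on either strand for 4 of the 30 (13.3%) beside 4.29% of genes, and the full CLEAR palindrome for 0 of 30 beside 0.37%. The 3 stretches below are shown because they hold TCACGTG and lie before a RefSeq start of the Rubicon gene and of 2 conjugation enzyme genes. Capitals mark the core, and each runs 5′ to 3′ on the gene's strand. Rubcn is from chr16:32868429-32868474 (minus strand), with its core starting 88 bases before a RefSeq start. Atg3 is from chr16:45158715-45158783 (plus strand), with cores starting 94 and 71 bases before its start. Atg7 is from chr6:114670944-114670989 (plus strand), with its core starting 132 bases before a RefSeq start. The Rubcn and Atg7 stretches lie inside the interval that the deposited table gives for those genes. A match describes letters in a window and not a bound site.
Rubcn: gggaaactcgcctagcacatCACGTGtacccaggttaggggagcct
Atg3: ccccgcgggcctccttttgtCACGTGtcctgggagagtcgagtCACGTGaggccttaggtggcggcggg
Atg7: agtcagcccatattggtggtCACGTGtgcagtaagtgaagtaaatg

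The 5 genes whose window holds the core had no common direction in Mertk WT 2, the single library where Tfeb was lowest. Within Mertk WT that library was the lowest for Rubcn (65.2 CPM), Atg3 (40.5 CPM) and Atg14 (15.97 CPM), second highest for Atg7 (38.1 CPM) and highest for Atg5 (29.1 CPM).

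**Figure D2:**
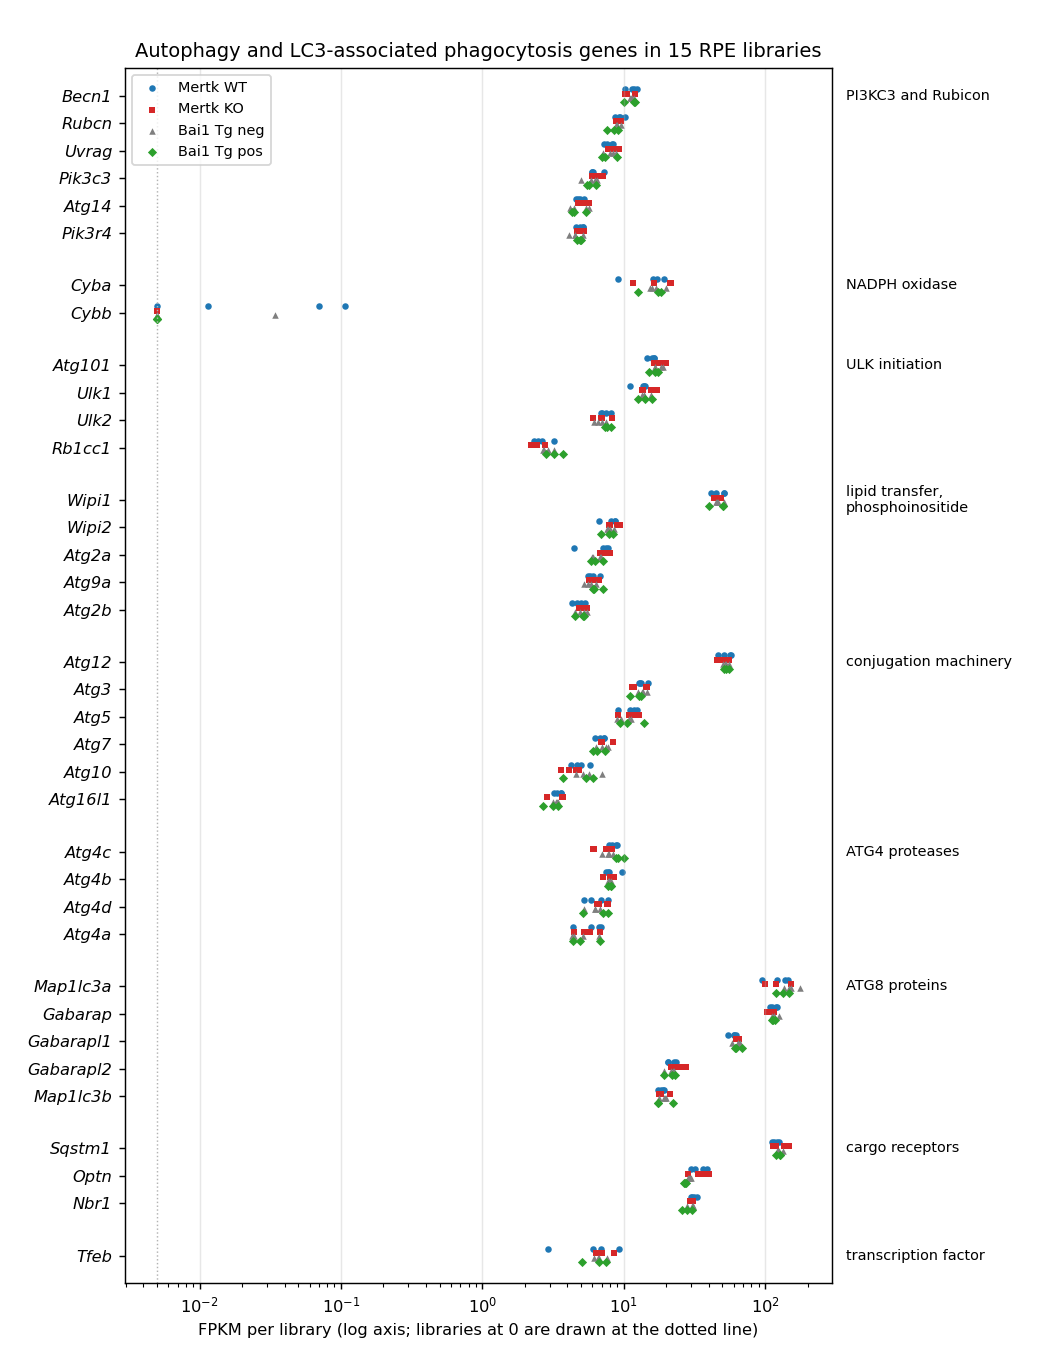
Level of each member in every library as FPKM (x axis, log scale), with members grouped by role on the y axis and colours and symbols for the 4 groups. Map1lc3a, Sqstm1 and Gabarap have their lowest values at 95.75, 112.4 and 103.8 FPKM, Rb1cc1 is the lowest of the tested members on average, and Cybb is at 0 in 11 of 15 libraries.

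Rubcn (ENSMUSG00000035629; chromosome 16, 32821703 to 32877766, minus strand) encodes Rubicon, which directs the lipid kinase complex to LAP and restrains autophagy. It stood at 70.1, 65.2, 76.6 and 69.1 CPM in Mertk WT, 67.98, 71.2, 65.9 and 71.3 CPM in Mertk KO, 71.6, 67.1, 66.5 and 66.8 CPM in Bai1 Tg neg and 57.2, 63.9 and 68.5 CPM in Bai1 Tg pos. All groups overlapped, and only Bai1 Tg pos 1 and 2 lay below 65 CPM. In Mertk KO the Rubcn log2 fold change was -0.03 (SE 0.079, 95% interval -0.20 to 0.14, adjusted p = 0.968), and 0.02 without Mertk WT 3. In Bai1 Tg pos it was -0.10 (SE 0.085, 95% interval -0.28 to 0.08, adjusted p = 0.958), and -0.11 without the library labelled Bai1 Tg neg 4. It was -0.04 without Bai1 Tg pos 1 and -0.16 without Bai1 Tg pos 3. The control groups differed by 0.05 (95% interval -0.12 to 0.21). Rubicon transcripts thus lay between 57.2 and 76.6 CPM in all 4 groups.

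The other genes of the lipid kinase complexes had small estimates as well. Levels can be compared between genes only per length, for which CPM was divided by the exon length in the deposited table (FPKM). By that scale Becn1, the Beclin scaffold, stood at 11.3 ± 0.778 FPKM (SD, n = 15), Rubcn at 9.08 ± 0.581, Uvrag at 8.05 ± 0.687, Pik3c3, the catalytic subunit, at 6.15 ± 0.591, Atg14 at 4.97 ± 0.490 and Pik3r4, its regulatory subunit, at 4.85 ± 0.322. ATG14 and UVRAG define alternative complexes, of which the UVRAG form with Rubicon serves LAP. Per library the ratio of Rubcn to Atg14 in FPKM was 1.84 ± 0.191 (SD, n = 15) and that of Uvrag to Atg14 was 1.63 ± 0.163. Both depend on the length used: by principal transcript, the main isoform in GENCODE, they were 2.83 ± 0.293 and 1.18 ± 0.118, and Pik3r4 moved from the lowest to the third highest of the 6. The principal transcript of Uvrag has 5157 bases, against 3438 exon bases in the deposited table, and that of Atg14 has 3729 against 3450. The deposited counts do not cover the extra bases, so the principal-transcript scale understates Uvrag in particular. Of the 6 genes 4 had estimates above 0 in Mertk KO, from -0.04 for Becn1 to 0.10 for Atg14, and 2 in Bai1 Tg pos, from -0.10 for Rubcn to 0.08 for Pik3r4. Becn1 shares 43.93% of its exon bases with the gene Cntd1 on the opposite strand, and fragments that fall in both were given to neither, so its level is uncertain.

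The oxidase of LAP in macrophages was barely represented. Cybb, the catalytic subunit NOX2, had 6, 0, 1 and 6 counts in the Mertk WT libraries, 0 in all 4 Mertk KO and all 3 Bai1 Tg pos libraries, and 0, 0, 0 and 4 counts in Bai1 Tg neg. The 11 libraries at 0 allow up to 0.159 to 0.295 CPM each, and the highest of the others was 0.624 CPM. Genes of cytosolic subunits were also scarce: Ncf4 had 0 counts in all 15 libraries, and Ncf1 lay at or below 1.62 CPM. With all these near the floor, no difference between groups was detectable at this depth. The summed macrophage and neutrophil marker lists given above were likewise low beside the RPE list. Csf1r, a macrophage receptor gene that is not in those lists, stood at 607.1 to 736.5 CPM, and its cellular source was not tested.

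Cyba (ENSMUSG00000006519; chromosome 8, 122424772 to 122432940, minus strand), the membrane subunit that also partners other NADPH oxidases, was well above that floor. It stood at 14.5, 6.92, 13.02 and 12.2 CPM in Mertk WT, 8.81, 16.2, 12.3 and 16.3 CPM in Mertk KO, 12.9, 15.1, 11.6 and 12.03 CPM in Bai1 Tg neg and 9.61, 13.3 and 13.9 CPM in Bai1 Tg pos. The lowest value was again that of Mertk WT 2, followed by Mertk KO 1, and all groups overlapped. In Mertk KO the Cyba log2 fold change was 0.20 (SE 0.25, 95% interval -0.36 to 0.75, adjusted p = 0.926), but 0.0017 without Mertk WT 2. In Bai1 Tg pos it was -0.06 (SE 0.18, 95% interval -0.43 to 0.32, adjusted p = 0.993), and 0.08 without Bai1 Tg pos 1. The control groups differed by -0.15 (95% interval -0.58 to 0.28), and 0.04 without Mertk WT 2. Rac1, the widely used GTPase of the same oxidase, stood at 245.0 to 307.6 CPM.

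The ULK complex starts autophagosome formation and is dispensable for LAP. Atg101, the gene of its ATG13-binding subunit (ENSMUSG00000037204; chromosome 15, 101284301 to 101290934, plus strand), was at 20.04, 18.1, 20.2 and 19.7 CPM in Mertk WT and at 21.9, 24.3, 24.6 and 20.3 CPM in Mertk KO. It was at 20.4, 23.5, 20.6 and 22.6 CPM in Bai1 Tg neg and 18.6, 20.4 and 21.5 CPM in Bai1 Tg pos. Every Mertk KO library was above every Mertk WT library, by a margin of 20.2 against 20.3 CPM at the closest. Atg101 was the only member without overlap in that comparison, 1 of 35 (2.86%) beside 3.52% of all genes tested. Its log2 fold change there was 0.22 (SE 0.11, 95% interval -0.02 to 0.45, adjusted p = 0.897). Against Bai1 Tg neg, however, Mertk WT was the lower group without overlap, and Mertk KO overlapped Bai1 Tg neg. The log2 fold change of Mertk WT over Bai1 Tg neg was -0.16 (SE 0.10, 95% interval -0.38 to 0.06, adjusted p = 0.754).

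The kinase genes and the large scaffold did not separate the groups. Ulk1 was at 90.7, 72.3, 92.05 and 88.7 CPM in Mertk WT and 88.01, 101, 111 and 89.4 CPM in Mertk KO, where its log2 fold change was 0.18 (SE 0.10, 95% interval -0.05 to 0.40, adjusted p = 0.905), and at 87.2, 90.01, 101 and 89.96 CPM in Bai1 Tg neg and 104, 91.3 and 82.1 CPM in Bai1 Tg pos. The Mertk WT and KO values overlapped, with Mertk WT 2 lowest, and without that library the estimate was 0.10. Ulk2 was at 44.7, 42.2, 37.04 and 39.3 CPM in Bai1 Tg neg and 48.5, 45.8 and 44.01 CPM in Bai1 Tg pos, with a log2 fold change of 0.18 (SE 0.097, 95% interval -0.03 to 0.39, adjusted p = 0.958). In the Mertk set it was at 44.9, 48.5, 42.05 and 41.4 CPM in Mertk WT and 49.3, 41.4, 36.1 and 41.8 CPM in Mertk KO. The Bai1 groups overlapped in Ulk2 only because Bai1 Tg pos 3 lay below Bai1 Tg neg 1. Rb1cc1, the FIP200 scaffold, was at 43.05, 47.2, 39.5 and 40.2 CPM in Bai1 Tg neg and 54.9, 47.6 and 41.6 CPM in Bai1 Tg pos, with a log2 fold change of 0.18 (SE 0.11, 95% interval -0.06 to 0.41, adjusted p = 0.958), which was 0.07 without Bai1 Tg pos 1 and 0.27 without Bai1 Tg pos 3. In Mertk WT it was at 36.5, 47.1, 38.7 and 34.2 CPM and in Mertk KO at 40.9, 35.9, 32.3 and 34.02 CPM. Its groups overlapped in each of the 3 comparisons.

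Membrane supply and phosphoinositide reading were represented by 5 genes. Wipi1, a phosphoinositide reader, was the most abundant at 46.9 ± 3.47 FPKM (SD, n = 15), followed by its relative Wipi2 at 8.11 ± 0.711 FPKM. The ratio of Wipi1 to Wipi2 was 5.82 ± 0.665 in FPKM but 2.33 ± 0.266 by principal transcript. The lipid transfer genes Atg2a and Atg2b stood at 6.77 ± 0.910 and 5.01 ± 0.374 FPKM and the scramblase gene Atg9a at 6.12 ± 0.528 FPKM. Of the 5, 4 had estimates above 0 in Mertk KO, from -0.02 for Wipi1 to 0.15 for Atg2a, and 3 in Bai1 Tg pos, from -0.04 for Wipi2 to 0.17 for Atg9a. Atg2a reached only 34.5 CPM in Mertk WT 2, against 45.4 to 61.5 CPM in the other 14 libraries. Atg9a shares 31.79% of its exon bases with Gm29253 on the same strand, so its level is a lower limit.

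The conjugation machinery attaches ATG8 proteins to lipid and is shared by autophagy and LAP. Atg12, the ubiquitin-like modifier, stood at 52.3 ± 3.70 FPKM, the E2-like enzyme genes Atg3 and Atg10 at 13.2 ± 1.16 and 4.97 ± 0.924 FPKM, Atg5 at 10.9 ± 1.49 FPKM, the E1-like Atg7 at 7.04 ± 0.591 FPKM and Atg16l1, which places the reaction on the membrane, at 3.35 ± 0.297 FPKM (SD, n = 15 for each). The modifier transcript was thus more abundant per length than any of the enzymes acting on it. Of the 6, 3 had estimates above 0 in Mertk KO, from -0.21 for Atg10 to 0.08 for Atg7, and 2 in Bai1 Tg pos, from -0.15 for Atg10 to 0.14 for Atg5. Atg10, at 5.84 to 11.4 CPM the tested member with the lowest mean CPM, had the widest interval of the group in both comparisons, down to -0.57 and -0.63.

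Among the ATG4 proteases, which trim ATG8 proteins and release them from membranes, Atg4c (ENSMUSG00000028550; chromosome 4, 99193934 to 99259787, plus strand) had the smallest unadjusted p of the members in both genotype comparisons, with estimates of opposite sign. It was at 26.6, 30.1, 27.8 and 29.6 CPM in Mertk WT and at 27.9, 20.3, 20.7 and 25.3 CPM in Mertk KO. Mertk KO 2 and 3 were the lowest of all 15 libraries, while Mertk KO 1 lay within the Mertk WT range and Mertk KO 4 just below it. It was at 26.3, 26.1, 28.2 and 23.6 CPM in Bai1 Tg neg and at 33.8, 29.8 and 30.6 CPM in Bai1 Tg pos, where the groups did not overlap. The Atg4c log2 fold change was -0.28 (SE 0.12, 95% interval -0.54 to -0.02, adjusted p = 0.861) in Mertk KO and 0.27 (SE 0.11, 95% interval 0.04 to 0.51, adjusted p = 0.948) in Bai1 Tg pos. Without the library labelled Bai1 Tg neg 4, the lowest of its group, the Bai1 estimate was 0.23 (adjusted p of 0.988, with 0.442 to 1.0 over all 14 alternatives).

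Tested directly over all 15 libraries, the Mertk and Bai1 effects on Atg4c differed by -0.55 (SE 0.16, 95% interval -0.89 to -0.21, adjusted p = 0.319), and by -0.50 (adjusted p of 0.479) with that library left out. This did not pass the threshold under any alternative, the adjusted p lying between 0.16, with DESeq2, and 0.656. Between the control groups the Atg4c estimate was 0.13 (SE 0.094, 95% interval -0.07 to 0.34, adjusted p = 0.799). At an unadjusted p under 0.05, Atg4c was the only member in Mertk KO against WT and the only member in Bai1 Tg pos against neg, 1 of 35 (2.86%) each. All genes reached that in 5.58% and 5.18% of cases, so the members' share is near the background. For Bai1, 0 of 35 did so once the library labelled Bai1 Tg neg 4 was left out. In the test of the difference, 2 of 35 did (5.71%: Atg4c and Atg101), beside 7.53% of all genes, and Atg4c alone without that library. The counts without that library come from fewer libraries and have no share of all genes beside them. The other members with a small p for the difference were Atg101 at 0.32 (SE 0.15, 95% interval 0.004 to 0.64, adjusted p = 0.657), Rb1cc1 at -0.31 (SE 0.16, 95% interval -0.65 to 0.03, adjusted p = 0.692) and Ulk2 at -0.25 (SE 0.14, 95% interval -0.55 to 0.04, adjusted p = 0.73). The Rb1cc1 difference was -0.21 without Bai1 Tg pos 1.

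The other proteases had estimates closer to 0. Atg4b stood at 8.03 ± 0.566 FPKM, Atg4d at 6.61 ± 0.919 FPKM and Atg4a at 5.52 ± 1.04 FPKM (SD, n = 15), next to 8.09 ± 1.09 FPKM for Atg4c. Mertk estimates for the 4 ran from -0.28 for Atg4c to 0.15 for Atg4d, and all 4 Bai1 estimates were above 0, from 0.02 for Atg4b to 0.27 for Atg4c. Atg4a shares 99.3% identity over 2115 bases with its processed copy Atg4a-ps, and Atg4d shares 31.17% of its exon bases with Kri1 on the opposite strand, so both levels are uncertain.

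**Figure D3:**
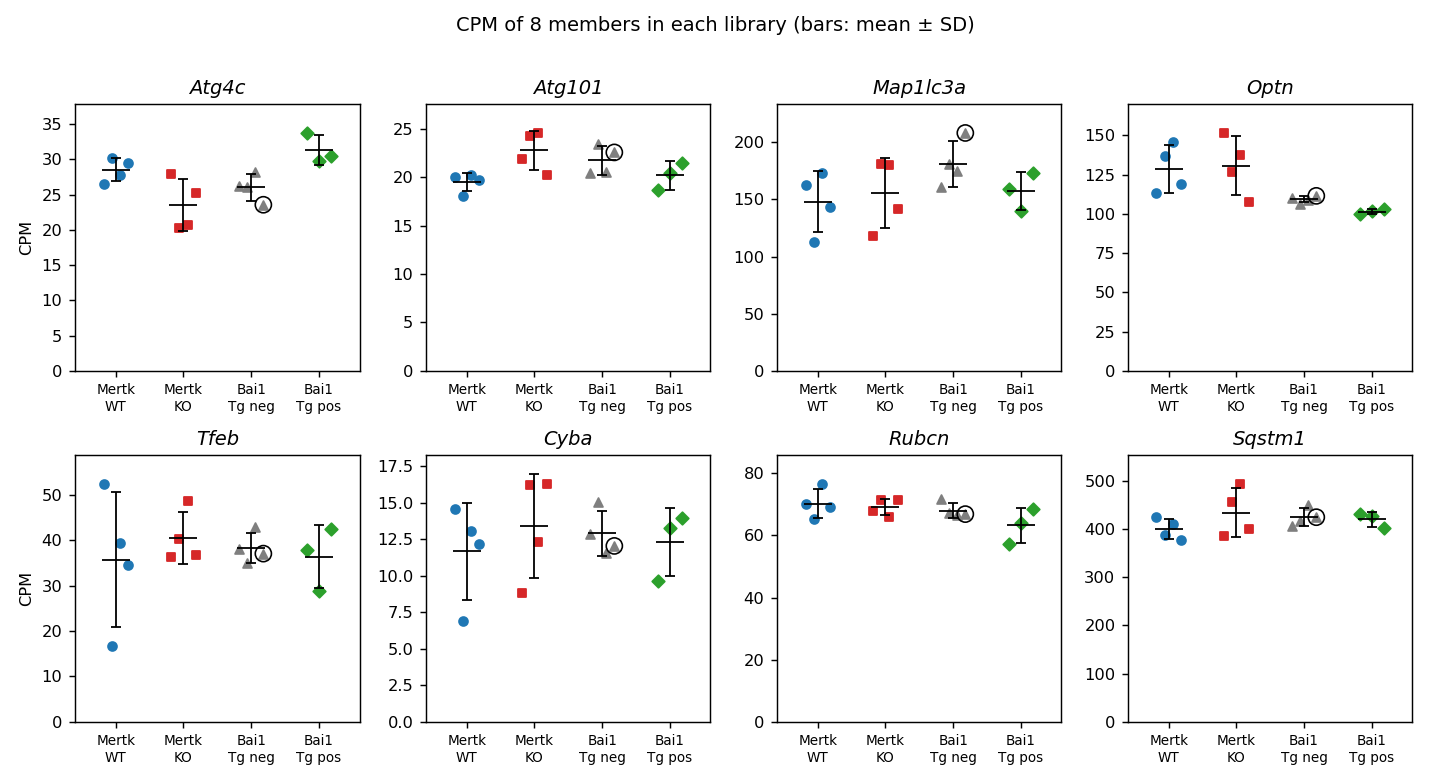
CPM (y axis, from 0) of 8 members in each library, by group; each symbol is a library, the horizontal mark and bar give the mean and SD, and the ring marks the library labelled Bai1 Tg neg 4. Atg4c is lowest in Mertk KO 2 and 3 and does not overlap between the Bai1 groups, Mertk WT 2 is lowest for Tfeb and Cyba, and Rubcn and Sqstm1 overlap in all groups.

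The ATG8 proteins are the tags themselves, and their 5 genes included some of the most abundant members. Map1lc3a stood at 136 ± 21.6 FPKM, Gabarap at 115 ± 4.97 FPKM, Gabarapl1 at 62.8 ± 3.55 FPKM, Gabarapl2 at 22.4 ± 2.19 FPKM and Map1lc3b at 18.9 ± 1.41 FPKM (SD, n = 15). Map1lc3a made up 38.1% ± 3.95 of their summed FPKM, Gabarap 32.5% ± 2.73, Gabarapl1 17.7% ± 0.981, Gabarapl2 6.34% ± 0.687 and Map1lc3b 5.34% ± 0.534. This order and these shares hold for the FPKM scale. By principal transcript Gabarap, at 156.6, stood above Map1lc3a, at 144.6. The place of the LC3B gene in the order also depends on its length. The deposited table gives Map1lc3b 7517 exon bases, whereas its principal transcript in GENCODE has 2532, and on the latter length it moved from 10th to 6th among all members. The level ratio of Map1lc3a to Map1lc3b was 1.14 in CPM, 7.25 in FPKM and 2.59 per base of the principal transcripts.

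Map1lc3a (ENSMUSG00000027602; chromosome 2, 155276297 to 155278073, plus strand), the LC3A gene, had a within-group SD of 0.234 in log2 CPM, against 0.065 to 0.123 for the other ATG8 genes. It was at 163, 113, 173 and 144 CPM in Mertk WT and 118, 181, 180.3 and 142 CPM in Mertk KO, which overlapped throughout. It was at 160.5, 181, 175 and 208 CPM in Bai1 Tg neg and 159, 140.3 and 173 CPM in Bai1 Tg pos, the highest of all being the library labelled Bai1 Tg neg 4. In Mertk KO the Map1lc3a log2 fold change was 0.06 (SE 0.17, 95% interval -0.32 to 0.44, adjusted p = 0.968), and -0.05 without Mertk WT 2. In Bai1 Tg pos it was -0.20 (SE 0.093, 95% interval -0.40 to 0, adjusted p = 0.948), and -0.12 without either Bai1 Tg pos 2 or the library labelled Bai1 Tg neg 4. The control groups differed by -0.29 (SE 0.13, 95% interval -0.57 to -0.01, adjusted p = 0.58), lower in Mertk WT, by -0.22 without the library labelled Bai1 Tg neg 4 and by -0.18 without Mertk WT 2. The gene lies 26.5 Mb from Mertk on the same chromosome.

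Map1lc3b, the LC3B gene whose product is the usual marker of LAP phagosomes, was at 146, 142, 132 and 139 CPM in Mertk WT, 159, 134, 138 and 135 CPM in Mertk KO, 134, 145, 149.9 and 147 CPM in Bai1 Tg neg and 167, 132 and 132 CPM in Bai1 Tg pos. Mertk KO 1 and Bai1 Tg pos 1 stood above the rest, and all groups overlapped. Its log2 fold change was 0.01 (95% interval -0.15 to 0.18) in Mertk KO, -0.004 (-0.20 to 0.19) in Bai1 Tg pos and -0.04 (-0.19 to 0.10) between the control groups. The first 2 estimates change sign when 1 library is left out and stay between -0.13 and 0.06. Gabarapl2 had the third smallest p for Mertk, at 52.9, 47.96, 54.7 and 47.8 CPM in Mertk WT and 54.6, 64.5, 50.5 and 59.1 CPM in Mertk KO, with a log2 fold change of 0.16 (SE 0.095, 95% interval -0.04 to 0.37, adjusted p = 0.905). It was at 50.6, 52.1, 52.9 and 44.7 CPM in Bai1 Tg neg and 45.03, 51.4 and 53.7 CPM in Bai1 Tg pos. Its Mertk KO values overlapped those of Mertk WT through Mertk KO 1 and 3, and the estimate was 0.10 without Mertk KO 2. Transcript levels do not report how much LC3 is lipid-anchored, which is set after translation.

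Cargo receptors link ubiquitinated material to ATG8 proteins and are themselves degraded by autophagy. Sqstm1, the gene of p62, was the most abundant member in CPM, at 425, 387, 409 and 377 CPM in Mertk WT, 384, 456, 493 and 399 CPM in Mertk KO, 406, 417, 449.9 and 424 CPM in Bai1 Tg neg and 430.4, 427 and 401 CPM in Bai1 Tg pos. Mertk KO 2 and 3 were the highest, and all groups overlapped. Its log2 fold change was 0.11 (SE 0.09, 95% interval -0.08 to 0.31, adjusted p = 0.912) in Mertk KO, -0.01 (95% interval -0.15 to 0.12) in Bai1 Tg pos and -0.09 (-0.23 to 0.06) between the control groups. Without Mertk KO 3 the Mertk estimate was 0.04, and without Bai1 Tg neg 3 the control groups differed by -0.06. Sqstm1 shares 17.28% of its exon bases with Mrnip on the opposite strand. Nbr1, a related receptor, stood at 30.1 ± 1.69 FPKM (SD, n = 15) and was the second tightest of the members within groups.

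Optn (ENSMUSG00000026672; chromosome 2, 5020642 to 5064051, minus strand), the optineurin receptor, had the smallest unadjusted p of the members between the control groups. It was at 113, 137, 146 and 119 CPM in Mertk WT and 152, 127, 138 and 107 CPM in Mertk KO. It was at 110.2, 107, 109 and 112 CPM in Bai1 Tg neg and 99.8, 102 and 103 CPM in Bai1 Tg pos. The Mertk groups overlapped each other fully, and every Mertk WT library was above every Bai1 Tg neg library. Every Bai1 Tg pos library was below every Bai1 Tg neg library, by a small margin. The log2 fold change of Mertk WT over Bai1 Tg neg was 0.24 (SE 0.084, 95% interval 0.06 to 0.42, adjusted p = 0.409), and 0.25 without the library labelled Bai1 Tg neg 4. That of Bai1 Tg pos was -0.10 (SE 0.068, 95% interval -0.25 to 0.04, adjusted p = 0.958). With Atg4c in the Bai1 set, Optn made 2 of 35 members without overlap there (5.71%), beside 6.2% of all genes. With Atg101 between the control groups it made 2 of 35 (5.71%), beside 5.74% of all genes, and with Map1lc3a it made 2 of 35 at an unadjusted p under 0.05, beside 7.99%. Optn alone of the 35 had such a p between the control groups once the library labelled Bai1 Tg neg 4 was left out. That count comes from fewer libraries and has no share of all genes beside it.

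Among the 8 Mertk libraries, the 5 of highest rod marker level held more Optn than the other 3, a cut placed after the values were seen. Within those 5, Optn did not rise steadily with rod level. Mertk KO 1 held 151.6 CPM at a rod level of 6.007, and Mertk WT 2 held 137.1 CPM at 7.116. Among the Bai1 libraries, Bai1 Tg neg 1 had the lowest rod level and 110.2 CPM of Optn, and Bai1 Tg pos 2 the highest rod level and 101.7 CPM. The 5 libraries with the highest mean log2 CPM of rod markers, 5.71 to 7.12, held 127 to 152 CPM of Optn. The 3 Mertk libraries of lower rod level, 5.18 to 5.46, held 107 to 119 CPM, and the Bai1 libraries, 2.33 to 4.92, held 99.8 to 111.5 CPM. Adding the rod marker level to the fit gave -0.09 (adjusted p of 0.913, with 0.173 to 0.913 over all 15 alternatives) for the control groups, whose rod levels do not overlap. Group and rod level cannot be told apart in that fit, and the part of rod RNA in the Optn difference was not tested. Tfeb and Cyba had their lowest values in the library of highest rod level, and their other values overlapped across the range.

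**Figure D4:**
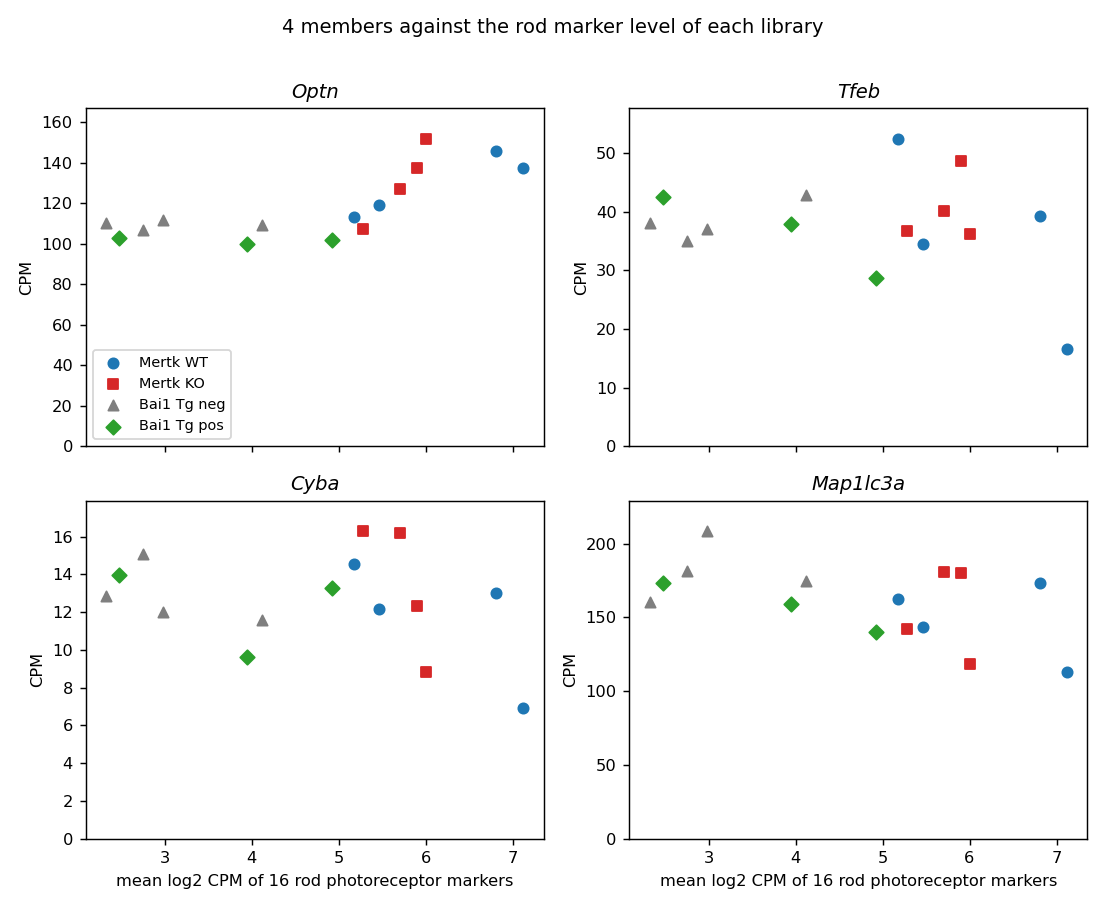
CPM (y axis, from 0) of Optn, Tfeb, Cyba and Map1lc3a against the mean log2 CPM of 16 rod photoreceptor markers (x axis), with a symbol for each library by group. Optn lies at 99.8 to 111.5 CPM in all Bai1 libraries and between 107 and 152 CPM in the Mertk libraries, and the rightmost library, Mertk WT 2, is lowest for Tfeb, Cyba and Map1lc3a.

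A wider list of 61 autophagy and LAP genes that are not among the 36 gave the same count of 0 edgeR calls in each comparison. Of the 54 tested for Mertk, 21 had estimates above 0 (49.7% of all genes) and 4 an unadjusted p under 0.05 (7.41%, beside 5.58% of all genes): Calcoco1, Mreg, Mtor and Vps39. Of the 53 tested for Bai1, 24 had estimates above 0 and 1 reached that p (1.89%, beside 5.18%), Bnip3. Between the control groups 5 of 53 did (9.43%, beside 7.99%): Bnip3l, Mitf, Mlst8, Prkab1 and Tmem41b. In the test of the difference 4 of 55 did (7.27%, beside 7.53%): Fundc1, Mlst8, Mreg and Vps39. DESeq2 and limma-voom called 0 of these genes as well. By role the list held cargo and organelle receptors (13), AMPK and mTORC1 genes (13), fusion genes of autophagosome and lysosome (13), early autophagosome genes (13), oxidase and LAP genes (6) and the MiT family (3). Vps39, a subunit of the HOPS tether for lysosomal fusion, had the smallest p of either list for Mertk, with a log2 fold change of -0.34 (SE 0.08, 95% interval -0.51 to -0.16, adjusted p = 0.227), and the groups did not overlap. With DESeq2 its adjusted p was 0.0541, and over all 16 alternatives it lay between 0.0541 and 0.631. The gene lies 8.35 Mb from Mertk on the same chromosome. It was singled out after its values were seen.

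Mreg encodes melanoregulin, which has been tied to LC3-dependent phagosome degradation in the RPE. It was at 1.14, 1.80, 1.20 and 0.624 CPM in Mertk WT and 0.805, 0.336, 0.554 and 0.413 CPM in Mertk KO, with a log2 fold change of -1.19 (SE 0.46, 95% interval -2.18 to -0.19, adjusted p = 0.777). It was at 0.308, 0.179, 0.426 and 0.399 CPM in Bai1 Tg neg and 0.490, 0.773 and 0.267 CPM in Bai1 Tg pos, and 3 of the 4 Mertk WT libraries held the highest values of all. These levels are close to the floor, and the Mertk groups overlapped only through Mertk WT 4 and Mertk KO 1. Mitf, the MiT-family factor that directs pigment cell genes, was at 122, 144, 148 and 119.5 CPM in Mertk WT, 155, 160.5, 147 and 131 CPM in Mertk KO, 169, 167, 142 and 160.1 CPM in Bai1 Tg neg and 182, 160.0 and 134 CPM in Bai1 Tg pos. The Mitf log2 fold change was 0.15 (SE 0.093, 95% interval -0.05 to 0.35, adjusted p = 0.905) in Mertk KO and -0.26 (SE 0.089, 95% interval -0.45 to -0.07, adjusted p = 0.386) in Mertk WT against Bai1 Tg neg. The relative Tfe3 stood at 37.9 to 48.3 CPM and Tfec at or below 1.19 CPM.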

How the data were processed

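The authors deposited raw fragment counts per gene. A TruSeq kit with poly-A selection is named in the labels' protocols, and STAR and GRCm38 in the submitters' processing notes. The count table's header records, per the file headers, that the authors ran featureCounts 1.5.0 with both ends required and no strand option. Fragments in exons of overlapping genes were therefore given to no gene, whichever the strand. Neither the STAR version nor the annotation release is stated in these sources. The gene length in the same table is the summed exon length that the authors deposited per the file headers. Symbols were matched for 45143 of 46078 identifiers, holding 99.91% of counts. No library was a copy of another in its group, since pairs within a group differed beyond counting noise (chi-square of at least 5.03 per degree of freedom). Pairs from different groups were not compared, and each library was counted as 1 sample. That check does not show that they came from separate animals.

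CPM used TMM factors over all 15 libraries, and FPKM is CPM per kilobase of that length. Tests were edgeR 4.0.16 in R 4.3.3 (TMM, filterByExpr, robust, quasi-likelihood F test, two-sided) on the libraries of the compared groups, or on all 15 for the difference of effects, with Benjamini-Hochberg adjustment over all genes tested and a threshold of 0.05. The SE came from the log2 fold change and its F statistic, and 95% intervals from the SE and the total (residual plus prior) degrees of freedom. The script was tested on simulated data. Alternatives were DESeq2 1.42.0, limma-voom (limma 3.58.1) with quality weights, DESeq2 size factors in edgeR, omission of the filter on low counts, a block for the replicate number, a single fit of all 15 libraries, the rod marker level or first tag number of the description as a covariate, and leaving out each library. Ordering by principal transcript length was added after seeing the data. For some members, Uvrag, Atg12 and Atg4d among them, that transcript is longer than the deposited exon length, and their levels on that scale are understated. Copies were searched for with blastn 2.17.0 (at least 95% identity over 150 bases) in GENCODE transcripts. Intervals and floors cover sampling between these libraries or counting error only.

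All members are accounted for by role. Values in every library are given for members past the threshold, the 4 of smallest p in each comparison, and Rubcn, Cyba, Cybb, Map1lc3a, Map1lc3b, Sqstm1 and Tfeb. Of the wider list, Mreg, Mitf, Ncf1 and Ncf4 were named by rule, and 1 further gene of that rule is not reported here. Rac1, Csf1r, Tfe3, Tfec, Vps39, the other wider-list genes named at an unadjusted p, and the copies were named after their values were seen. The members and lists were chosen with earlier results of these data known.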

Additional observations from a re-analysis of the deposited data

Results flagged for a closer look

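Within each group of 4 libraries, the highest and the lowest value of every member, and of the copies Gm6055 and Atg4a-ps, was checked for a gap from the other 3 that is large beside the group's range. Of 113 groups, 9 had such a library, and chance alone flags about 1 in 20. Mertk WT 2 stood apart with 32.6 CPM of Pik3c3, against 26.7 to 27.0 in the others, and with 80.4 CPM of Atg4b, against 62.1 to 65.2. Mertk KO 2 stood apart with 44.3 CPM of Atg7, against 36.4 to 37.2, and with 27.8 CPM of Atg16l1, against 35.2 to 35.8. Mertk KO 1 had 159 CPM of Map1lc3b, against 134 to 138. Bai1 Tg neg 1 had 71.6 CPM of Rubcn, against 66.5 to 67.1, and 193 CPM of Nbr1, against 210 to 212. It also had 10.9 CPM of Gm6055, the Map1lc3b copy, against 0.284 to 1.49. The library labelled Bai1 Tg neg 4 had 0.2 CPM of Cybb, from 4 counts, against 0 in the others. With the other 3 tied at 0, any count would be flagged, so the rate of 1 in 20 does not apply to it.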

How the results depend on the processing

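The count of members and of wider-list genes past the threshold was 0 under all 16 alternatives for Mertk, 14 for Bai1, 15 for the control groups and 21 for the difference. The lowest adjusted p of any member, in the same order, was 0.473 (Atg4c without Mertk KO 1), 0.353 (Map1lc3a without Bai1 Tg pos 3), 0.173 (Optn without Mertk WT 1) and 0.16 (Atg4c, DESeq2). Over all genes the counts moved: for Mertk 30 in the main analysis, 74 with DESeq2, 69 with no low-count filter and 16 (without Mertk KO 4) to 31 leaving out 1 library. For Bai1 they were 2, then 25 with DESeq2, 85 with no filter, 0 with all 15 libraries in 1 fit, 0 with limma-voom, 1 with the rod covariate and 0 (without Bai1 Tg neg 3) to 54 (without Bai1 Tg pos 3) leaving out 1 library. For the control groups they were 58, then 244 with DESeq2, 138 with no filter, 0 with the rod covariate and 13 (without Bai1 Tg neg 1) to 89 (without Mertk WT 4) leaving out 1 library. For the difference they were 15, then 75 with DESeq2, 37 with no filter and 12 to 31 (without Bai1 Tg pos 3) leaving out 1 library. Correlations between the deviations of same-numbered libraries ran from -0.115 to 0.236 and were over 0.1 only for Mertk numbers 3 (0.151) and 4 (0.236), so the numbers were not taken as pairs. For Mertk, 2 of 4 correlated best with their own number, and the libraries numbered 4 share a first tag of 21 where the others have 17. With the replicate block the counts were 24, 4, 106 and 14, no member was called, and Mertk itself had an adjusted p of 0.099. The first tag number as a covariate gave 30 for Mertk.

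Several estimates changed sign. With the rod covariate, between the control groups, Optn moved from 0.24 to -0.0865, Atg4c from 0.13 to -0.0294, Cyba from -0.15 to 0.605 and Tfeb from -0.10 to 0.574, and in the Bai1 set Cyba was at 0.000316. With limma-voom Map1lc3a was at -0.0151 for Mertk and Sqstm1 at 0.00763 for Bai1, and with DESeq2 size factors Map1lc3b was at 0.000317 for Bai1. Leaving out 1 library gave, for Mertk, -0.0688 to 0.017 for Rubcn, -0.0529 to 0.178 for Map1lc3a, -0.04 to 0.0427 for Map1lc3b and -0.0733 to 0.429 for Tfeb. For Bai1 it gave -0.157 to 0.079 for Cyba, -0.131 to 0.0567 for Map1lc3b, -0.0346 to 0.02 for Sqstm1 and -0.202 to 0.0807 for Tfeb. Between the control groups it gave -0.278 to 0.0436 for Cyba and -0.353 to 0.146 for Tfeb. The cause of these changes was not tested. Sqstm1, Map1lc3a, Gabarap, Gabarapl1 and Map1lc3b ranked 2, 1, 3, 4 and 10 among members by FPKM, 1, 5, 2, 9 and 6 by CPM, and 1, 3, 2, 5 and 6 by principal transcript length. Depth limits Cybb, Ncf1, Ncf4 and Mreg, and 3 or 4 libraries a group limit the rest.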

Other observations

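Counts of members with near-identical copies were set beside those of the copies, a choice made after the values were seen. Atg4a-ps, the processed copy of Atg4a, stood at 2.29, 2.07, 1.27 and 1.46 CPM in Mertk WT, 1.93, 3.02, 2.15 and 2.59 CPM in Mertk KO, 7.39, 4.71, 2.41 and 2.60 CPM in Bai1 Tg neg and 4.22, 5.41 and 5.13 CPM in Bai1 Tg pos. All Mertk WT libraries lay below all Bai1 Tg neg libraries, with a log2 fold change of -1.25 (SE 0.38, 95% interval -2.06 to -0.44, adjusted p = 0.26). Its share of the sum with Atg4a ran from 7.37% in Mertk WT 4 to 39.3% in Bai1 Tg neg 1. The sum itself was 17.9 ± 2.47 CPM (SD, n = 15). Gm6055, a copy of Map1lc3b sequence (99.7% identity over 378 bases), was at 10.9 CPM in Bai1 Tg neg 1 and at 0.284 to 1.49 CPM in the other 14 libraries. In that library Map1lc3b itself was lowest of its group, at 134 CPM. The sum of both there was 144.9 CPM, also the lowest of its group, against a mean of 147.5 CPM over the 4 libraries.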
